A study of Mus musculus with 157 samples.

Results

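The genes described here are the Vps, Chmp and sorting nexin genes: every protein-coding row of the expression tables whose symbol starts with Vps, Chmp or Snx followed by a digit. The rule found 73 genes of the 24940 in each table, 33 Vps, 10 Chmp and 30 Snx symbols. They were followed in bone marrow-derived macrophages of mice exposed to phosphate-buffered saline (PBS) or to particles at 250 ug/mL: monosodium urate crystals (MSUc), calcium pyrophosphate crystals (CPPD), silica or an aluminium salt (alum). Of 73 genes, 70 reached 1 TPM (a level per transcript length and library depth) in enough libraries to be tested in all 8 experiments. Chmp4c (at most 1.08 TPM) and Snx31 (at most 0.123 TPM) were tested in 0 experiments and Vps37d (at most 2.62 TPM) in 2. The highest medians over all libraries were those of Snx5 (242.6 TPM), Snx3 (197.5), Chmp4b (152.3), Snx1 (141.9) and Vps35 (132.0).

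Vps genes take their name from yeast mutants with faulty sorting of vacuolar proteins. Their products form several machines of the endosome: the ESCRT complexes, in which CHMP filaments bend and cut membranes and VPS4 takes the filaments apart; the HOPS and CORVET tethers, which fuse endosomes with each other and with lysosomes; and the retromer, which with sorting nexins carries receptors out of endosomes before they reach the lysosome. Macrophages pass engulfed particles along this route, and ESCRT proteins are also known to close holes in endolysosomal membranes. TFEB and TFE3 are transcription factors of lysosomal genes that bind the sequence CACGTG.

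The data were 115 RNA sequencing libraries in 8 experiments. In the time course, wild-type (WT) C57BL/6 macrophages stood in PBS or MSUc for 10 minutes, 30 minutes, 1 hour, 2 hours or 5 hours, with 2 libraries for each condition. The particle experiment held 3 PBS, 3 MSUc and 3 CPPD libraries and 2 libraries each labelled silica and alum. A Tfe3 experiment set Tfe3KO against Tfe3WT macrophages in PBS, MSUc, CPPD and silica (3 libraries each). A Tfeb experiment set Tfeb transgenic macrophages (TfebTg, 3 libraries a condition) against TfebWT in PBS (2) and MSUc (3), and a Bhlhe experiment set Bhlhe40KO and Bhlhe41KO against WT (2 each). Ampka1KO macrophages and congenic Ampka1WT came from mice 7 to 8 weeks old and were grown in RPMI with 5 ng/mL of the growth factor M-CSF, the others in DMEM with 16 ng/mL (3 libraries each). WT macrophages were also given SGC0946, an inhibitor of the histone methyltransferase DOT1L, at 1 uM from day 0, or metformin, each beside its own vehicle (3 libraries a group, 2 for SGC0946 in PBS). The promoter that drives the Tfeb transgene, the way the knockouts were made, the dose of metformin and the exposure times outside the time course are not given in the sources used here. The labels do not say whether libraries of a group came from separate cultures or mice, so that p-values measure the spread between these libraries, which may be technical.

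Libraries held 2.119 to 22.114 M recovered reads, with a median of 10.115 M. All 8 macrophage markers, such as Csf1r, Adgre1 and Lyz2, were above 0 in every group, with sums of 8393 to 41152 TPM, while B cell and T cell markers summed to at most 6.84 and 1.88 TPM, mast cell markers to at most 29.3 and dendritic cell markers to at most 39.6. Neutrophil markers summed to 1.57 to 1993 TPM and fibroblast markers to 1.49 to 2683 TPM over the libraries. The Tfe3 transcript was not lost in Tfe3KO (68.3 ± 1.66 TPM in PBS against 98.4 ± 5.01 in Tfe3WT, SD, n = 3; 85.7 ± 1.36 against 82.1 ± 2.05 with MSUc), nor was Prkaa1, which encodes AMPK alpha 1, in Ampka1KO (26.0 ± 1.56 against 24.5 ± 1.21 TPM in PBS, n = 3). A transcript level need not follow a deletion of part of a gene, so these genotypes rest on the labels alone. Bhlhe40 was at 13.9 ± 4.57 TPM in Bhlhe40KO with MSUc against 300.04 ± 18.9 in WT (n = 2). With MSUc Bhlhe41 was at 49.9 ± 0.529 TPM in Bhlhe41KO against 92.5 ± 3.42 in WT (n = 2). In PBS Bhlhe41 was at 48.0 ± 2.47 against 52.8 ± 4.32 TPM, so its transcript was not lost either and that genotype too rests on the labels. Tfeb was at 246.7 ± 49.3 TPM in TfebTg with MSUc against 28.4 ± 2.65 in TfebWT (n = 3). In 12 libraries titled Tfe3WT the genotype field reads Tfe3KO, and the titles were followed, so that Tfe3KO, Tfe3WT, Ampka1KO and Ampka1WT below mean the libraries so labelled. The TfebWT MSUc library 3 has PBS in its treatment field, and its title was followed as well.

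With MSUc, subunits of the same machine went different ways, and many did so in every experiment. A gene is called when limma's test on log2(TPM + 1) gives a Benjamini-Hochberg adjusted p under 0.05 over all genes tested. In the 8 comparisons of MSUc with PBS (5 hours standing for the time course), 8 genes were called up in all 8: Vps37b, Vps18, Snx16, Snx30, Vps37c, Vps26a, Vps29 and Vps4b. The 13 called down in all 8 were Vps9d1, Vps26b, Snx14, Vps39, Chmp1a, Snx17, Vps16, Vps25, Vps28, Vps41, Vps45, Vps51 and Vps53. MSUc moved the median of all genes by -0.16 to -0.30 log2 in these comparisons, and the median of the 70 or 71 genes described here by -0.15 to -0.34. When libraries were instead scaled by the median of ratios, which took the median of all genes to between -0.10 and 0.00, the 8 that rose all rose in all 8 experiments, together with Chmp2b, Snx18, Vps35 and Vps37a (12 in all). Of the 13 that fell, 4 were still down in all 8 under that scaling: Vps9d1, Vps26b, Snx14 and Vps39. The rises are therefore given below as they stand, and falls of other genes are relative to the deposited scale.

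Since MSUc changed much of the transcriptome, each count of 1 comparison is read beside the share of all genes called. How many of all genes were called alike in all 8 experiments was not counted. The genes called alike in all 8 are therefore given as a list, not as an excess among the genes described. At 5 hours 18 genes were up and 32 down of 71 (24 and 17 under the other scaling), where 49.3% of all genes were called. The particle experiment had 14 up and 36 down of 70 (26 and 18; 63% of all genes), Tfe3WT 17 and 37 (26 and 23; 61.6%) and TfebWT 9 and 28 (19 and 10; 45.5%). The TfebWT count of 37 was 32 without MSUc library 3, 23 without PBS library 1, and 0 when library 3 was counted in PBS as its treatment field has it. The median-of-ratios factor of library 3 was 0.927, beside 0.931 and 0.919 in the other TfebWT MSUc libraries and 1.13 and 1.10 in PBS. The log2 ratio of Vps37b over Vps28 was 0.16 to 0.52 in the MSUc libraries, library 3 included, and -2.47 to -2.11 in PBS. By both values library 3 lay with the MSUc libraries, as its title has it. WT of the Bhlhe experiment had 14 and 37 (23 and 22; 60.5%) and Ampka1WT 22 and 33 of 71 (33 and 23; 63.7%). The vehicle groups had 14 and 36 (20 and 23; 55.4%) in the SGC0946 experiment and 15 and 34 (19 and 25; 53.9%) in the metformin experiment. The share called among the genes described was 52.9 to 77.5%, against 45.5 to 63.7% of all genes. It was the higher of both shares in each of the 8 experiments, and the difference was not tested. The genes described were not matched to all genes by level, and the part of level was not tested either. In bulk RNA, fewer cells of a type and less RNA per cell cannot be told apart.

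**Figure D1:**
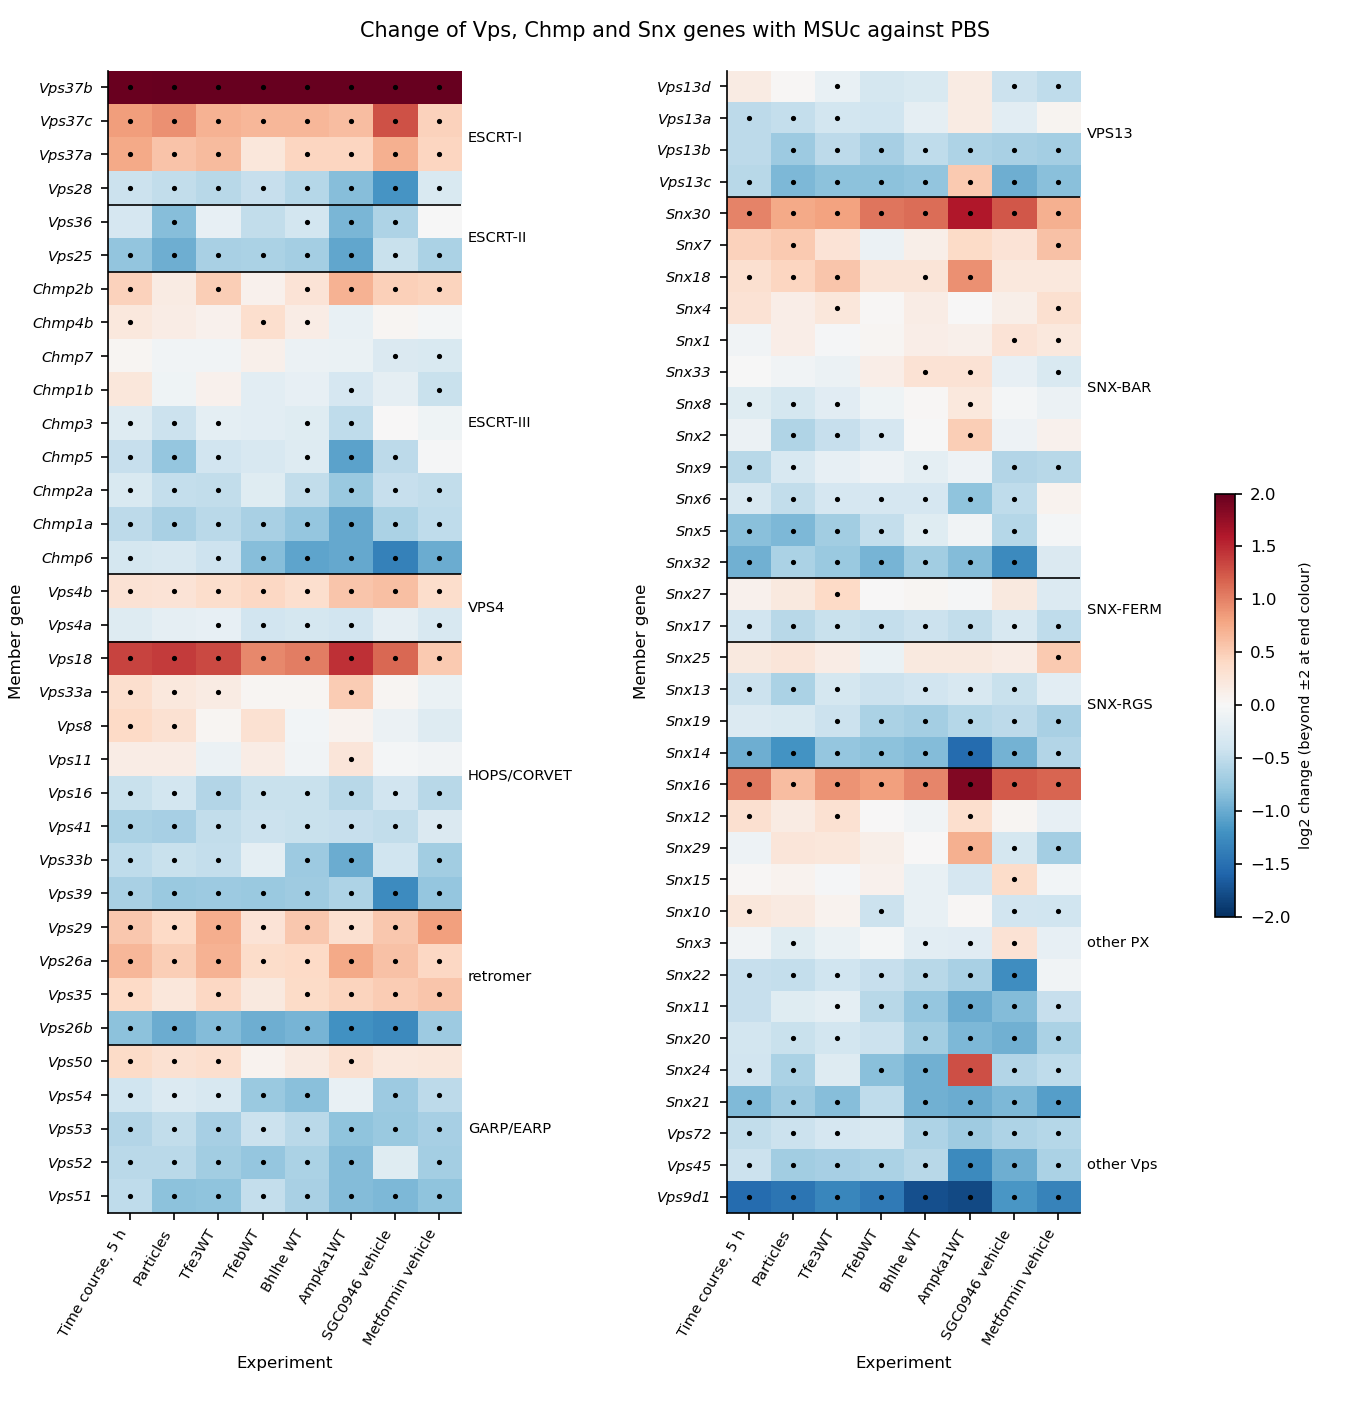
Log2 change with MSUc against PBS (colour, blue for lower and red for higher, log2(TPM + 1) scale) for each gene tested in all 8 experiments (rows, by role) in the 8 experiments (columns). Vps37b is the darkest red, at 1.98 to 2.75, and Vps9d1 the darkest blue in 7 of the 8, at -1.81 to -1.16 over all; dots mark adjusted p under 0.05.

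ESCRT-I, the complex that gathers ubiquitinated cargo and recruits the later ESCRT proteins, changed in its VPS37 subunits. Vps37b, 1 of the interchangeable VPS37 forms, stood at 29.7 and 31.0 TPM in the PBS libraries at 5 hours and at 106.2 and 141.1 TPM with MSUc, so that both MSUc libraries lay above both PBS libraries. The rise was 1.98 ± 0.15 log2 (SE, limma adjusted p = 3.9e-07), and over the 8 experiments it was 1.98 to 2.75, the largest rise of any gene described in each of them. Vps37c went from 31.9 and 35.2 to 62.9 and 58.3 TPM (0.83 ± 0.10 log2, limma adjusted p = 2.7e-05), and its rise over the experiments was 0.46 to 1.27. Vps37a rose in 7 of the 8 experiments (0.22 to 0.75). Vps28, the core subunit that joins ESCRT-I to ESCRT-II, fell in all 8 (-1.19 to -0.30) but in 4 under the other scaling. A difference between genes of the same library does not depend on how libraries are scaled, apart from the 1 added to each TPM. The log2 ratio of Vps37b over Vps28 was 2.40 to 3.90 higher with MSUc, and in 8 of 8 experiments every MSUc library lay above every PBS library. The ESCRT-II subunits Vps25 and Vps36 fell in 8 and 4 of the experiments (6 and 3 under the other scaling).

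In ESCRT-III, whose CHMP subunits form the cutting filament, CHMP2 forms moved apart. Chmp2b was at 50.3 and 55.6 TPM in PBS at 5 hours and at 72.1 and 73.4 with MSUc, with no overlap, and rose in 6 of 8 experiments (all 8 under the other scaling). Chmp2a fell in 7 of 8 (2 under the other scaling), and the log2 ratio of Chmp2b over Chmp2a was 0.33 to 1.43 higher with MSUc, every MSUc library lying above every PBS library in 7 experiments. Chmp1a, a late subunit that binds VPS4, fell in all 8 experiments (-1.02 to -0.51; 7 under the other scaling). Chmp6, the subunit that links ESCRT-II to the filament, fell in 7 (-1.35 to -0.32; 5 under the other scaling). Chmp4b, which makes the bulk of the filament and had the highest level of the ESCRT-III genes (median 152.3 TPM over all libraries), rose in 3 experiments (6 under the other scaling) and fell in 0 (-0.15 to 0.34 over the 8). Of the 2 VPS4 ATPases, Vps4b rose in all 8 experiments (0.28 to 0.60), from 61.4 and 68.3 to 75.6 and 82.9 TPM at 5 hours. That 5 hour call was lost without PBS replicate 1 (0.21, limma adjusted p = 0.16) or MSUc replicate 2 (0.22, 0.15), and in the particle experiment it was lost without any of 5 libraries (0.21 to 0.31, limma adjusted p 0.07 to 0.17). Vps4a fell in 5 experiments and in 0 under the other scaling. The log2 ratio of Vps4b over Vps4a was 0.46 to 0.94 higher with MSUc, without overlap in 8 of 8.

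The HOPS and CORVET tethers share a core of VPS11, VPS16, VPS18 and VPS33A, of which Vps18 alone rose in all 8 experiments. It stood at 61.7 and 56.7 TPM in PBS at 5 hours and at 144.7 and 160.8 with MSUc (1.35 ± 0.08 log2, limma adjusted p = 9.5e-08), and its rise over the 8 experiments was 0.52 to 1.46. Vps16 fell in all 8 experiments (-0.59 to -0.36; 3 under the other scaling), Vps11 rose in 1 (4) and Vps33a in 4 (6). Vps39, the HOPS subunit that binds the lysosomal side, went from 39.6 and 42.7 to 24.2 and 27.4 TPM at 5 hours and fell in all 8 experiments (-1.25 to -0.62). Vps8, a subunit of CORVET, was called up in 2 (5 under the other scaling) and down in 0 (-0.26 to 0.39). Within libraries, the log2 ratio of Vps18 over Vps16 was 1.08 to 2.01 higher with MSUc and that of Vps18 over Vps39 1.29 to 2.40 higher, without overlap in 8 of 8 experiments each.

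The retromer core is a trimer of VPS35, VPS29 and a VPS26 arm, which comes in 2 forms from separate genes. Vps26a was at 78.8 and 81.9 TPM in PBS at 5 hours and at 123.1 and 131.5 with MSUc (0.66 ± 0.09 log2, limma adjusted p = 6.4e-05). Vps26b was at 20.5 and 19.2 TPM in PBS and at 11.1 and 10.5 with MSUc (-0.82 ± 0.08 log2, limma adjusted p = 3.8e-06), so that the 2 forms moved in opposite directions with no overlap in either. Over the 8 experiments Vps26a rose by 0.37 to 0.76 and Vps26b changed by -1.27 to -0.72. Vps29 rose with Vps26a (32.5 and 33.8 to 50.4 and 46.9 TPM at 5 hours; 0.28 to 0.82 over the experiments), and Vps35 rose in 6 of 8, and in all 8 under the other scaling (0.19 to 0.56). In TfebWT the calls of Vps26a and Vps29 were lost without TfebWT PBS replicate 2 (0.26 and 0.19, limma adjusted p = 0.13 and 0.25), and that of Vps29 also without MSUc replicate 2 or 3 (0.22 and 0.31, limma adjusted p = 0.12 and 0.056).

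The log2 ratio of Vps26a over Vps26b within each library sets the transcripts of both forms side by side. Like the other ratios it was taken on TPM + 1, so it keeps a small dependence on library scaling, most for low genes. In the time course it was 1.81 to 2.14 in the 10 PBS libraries, 2.01 and 1.84 after 10 minutes of MSUc and 2.02 and 1.96 after 30 minutes. At 1 hour it was 2.45 and 2.35, at 2 hours 3.36 and 3.21, and at 5 hours 3.36 and 3.52, all above every PBS library. Over the 8 experiments the ratio was 1.13 to 1.97 log2 higher with MSUc (median 1.48), and every MSUc library lay above every PBS library of its experiment. With 2 or 3 libraries a group no exact permutation test of 1 experiment can go below p = 0.10, so the ratio is given as values.

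**Figure D2:**
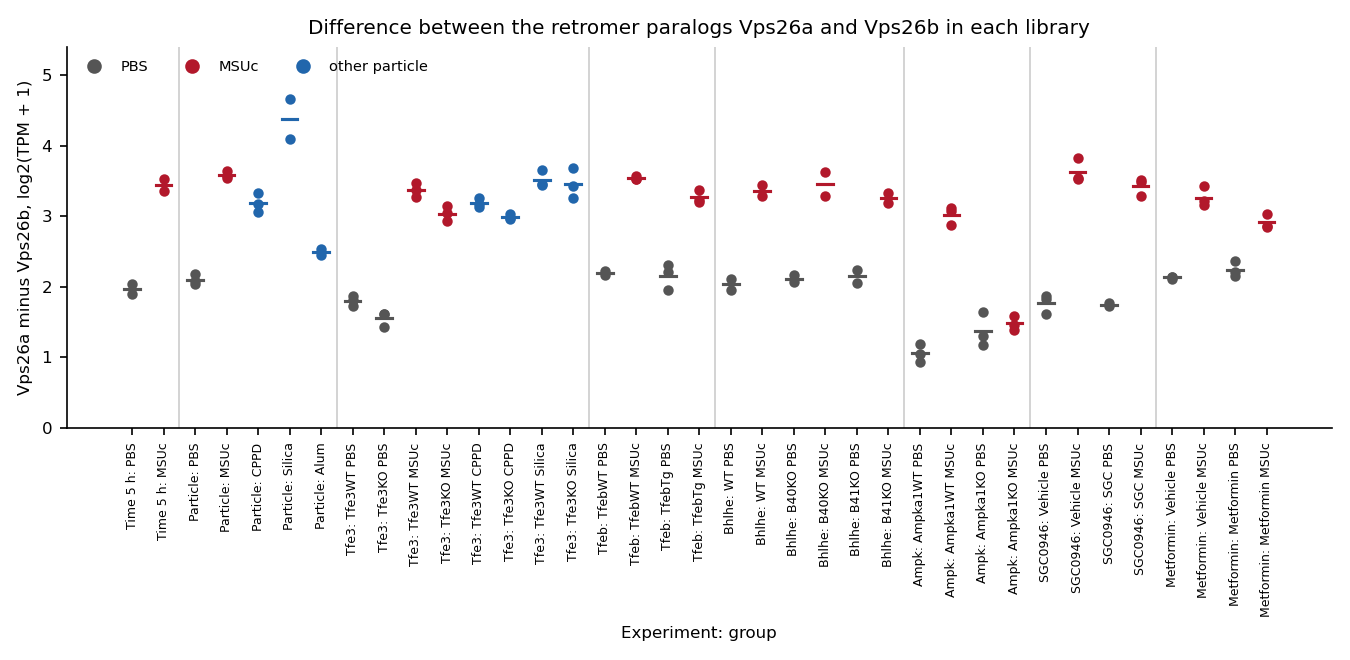
Log2(TPM + 1) of Vps26a minus that of Vps26b (y axis) in each library (points; bars are group means), by experiment and group (x axis; the time course at 5 hours). The MSUc libraries of WT macrophages lie above the PBS libraries of their experiment. Silica libraries are at 4.10 and 4.67 in the particle experiment, 3.44 to 3.65 in Tfe3WT and 3.26 to 3.69 in Tfe3KO. Ampka1KO libraries in PBS (1.17 to 1.64) and MSUc (1.39 to 1.59) overlap.

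Most genes of the GARP and EARP tethers, which receive vesicles at the trans-Golgi network and at recycling endosomes, fell. Vps51 went from 34.6 and 33.0 to 23.3 and 23.6 TPM at 5 hours and fell in all 8 experiments (-0.90 to -0.48; 7 under the other scaling), and Vps53 also fell in all 8 (4 under the other scaling). Vps52 and Vps54 fell in 7. Vps50, which replaces VPS54 in EARP, went the other way and rose in 4 experiments (7 under the other scaling; 0.08 to 0.38). Of the 4 VPS13 genes, whose proteins carry lipids between membranes at contact sites, Vps13b fell in 7 experiments (-0.72 to -0.50) and Vps13c in 7 while it rose in Ampka1WT.

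Sorting nexins bind endosomal phosphoinositides through a PX domain, and those with a BAR domain also bend membrane into tubules. Of the 12 SNX-BAR genes, Snx30, whose protein pairs with SNX4, rose in all 8 experiments (0.71 to 1.60), from 16.6 and 18.6 to 32.2 and 39.6 TPM at 5 hours. Snx5, the most abundant gene described (median 242.6 TPM), whose protein carries cargo of the tubules made with SNX1 or SNX2, went from 372.4 and 367.9 to 202.7 and 211.7 TPM (-0.83 ± 0.07 log2, limma adjusted p = 1.3e-06) and fell in 6 experiments (4 down and 1 up under the other scaling). Its close relative Snx32 was at 10.6 and 10.8 against 4.66 and 5.38 TPM at 5 hours and fell in 7 experiments (5 under the other scaling), and Snx2 was called up in 1 and down in 3. Snx16, an endosomal PX protein, went from 8.92 and 6.72 to 15.3 and 19.3 TPM and rose in all 8 (0.62 to 1.85), though its call in TfebWT was lost without PBS replicate 2 (0.45, limma adjusted p = 0.13). Snx14, an SNX-RGS protein of contacts between endoplasmic reticulum and lipid droplets, went from 21.8 and 24.6 to 10.9 and 11.7 TPM and fell in all 8 (-1.54 to -0.59). Vps9d1, which carries the VPS9 domain of Rab5 activators and belongs to none of the complexes above, had the largest fall in 7 of the 8 experiments (Chmp6 in the vehicle group of the SGC0946 experiment, -1.35): it went from 28.9 and 29.9 to 11.3 and 7.84 TPM at 5 hours (-1.54 ± 0.13 log2, limma adjusted p = 1.1e-06), and by -1.81 to -1.16 over the experiments. Snx17, a cargo adaptor of the retriever complex, and Vps45, a partner of endosomal fusion proteins, also fell in all 8 (-0.56 to -0.32 and -1.27 to -0.43; 4 and 5 under the other scaling).

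The time course showed when these changes began. At 10 minutes and at 30 minutes limma called 0 of the 71 genes, 0 and 4 had an unadjusted p under 0.05, and limma-voom on the recovered reads also called 0 at both times; of all genes 0.0567% and 0.68% were called. At 1 hour 4 genes rose and 1 fell (4 and 0 under the other scaling) where 3.28% of all genes were called. Those 5 rest on the spread shared by all 10 groups: fitted on the 1 hour libraries alone 0 were called, and leaving out any 1 of those 4 libraries left 1 to 3. At 2 hours 11 rose and 19 fell (17 and 5 under the other scaling), where 33.5% of all genes were called, and 12 in all were called on the 2 hour libraries alone.

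Snx18, a SNX-BAR protein of membrane remodelling in endocytosis and autophagy, peaked early. It was at 35.4 and 30.7 TPM in PBS and 54.4 and 57.3 with MSUc at 1 hour (0.74 ± 0.12 log2, limma adjusted p = 0.0024), and its mean with MSUc was then 48.5 TPM at 2 hours and 39.99 at 5 hours. Vps18 was at 67.4 and 61.0 TPM in PBS and 93.2 and 87.1 with MSUc at 1 hour (0.48 ± 0.08 log2, limma adjusted p = 0.0053), and at 140.9 and 159.7 at 2 hours, already in the range of 5 hours. Vps37b was still climbing: it was at 44.5 and 51.2 TPM with MSUc at 1 hour (0.76 ± 0.15 log2, limma adjusted p = 0.01), 79.2 and 96.2 at 2 hours and 106.2 and 141.1 at 5 hours, while PBS libraries stayed at 25.6 to 34.5. Vps37c was the last of the rises called at 1 hour (0.44 ± 0.10 log2, limma adjusted p = 0.034), and Vps26b the fall (-0.34 ± 0.08 log2, limma adjusted p = 0.035). Vps9d1 was at 24.1 and 21.6 TPM with MSUc at 1 hour, not called, and at 12.3 and 11.0 at 2 hours (-1.22 ± 0.13 log2, limma adjusted p = 1.8e-05).

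**Figure D3:**
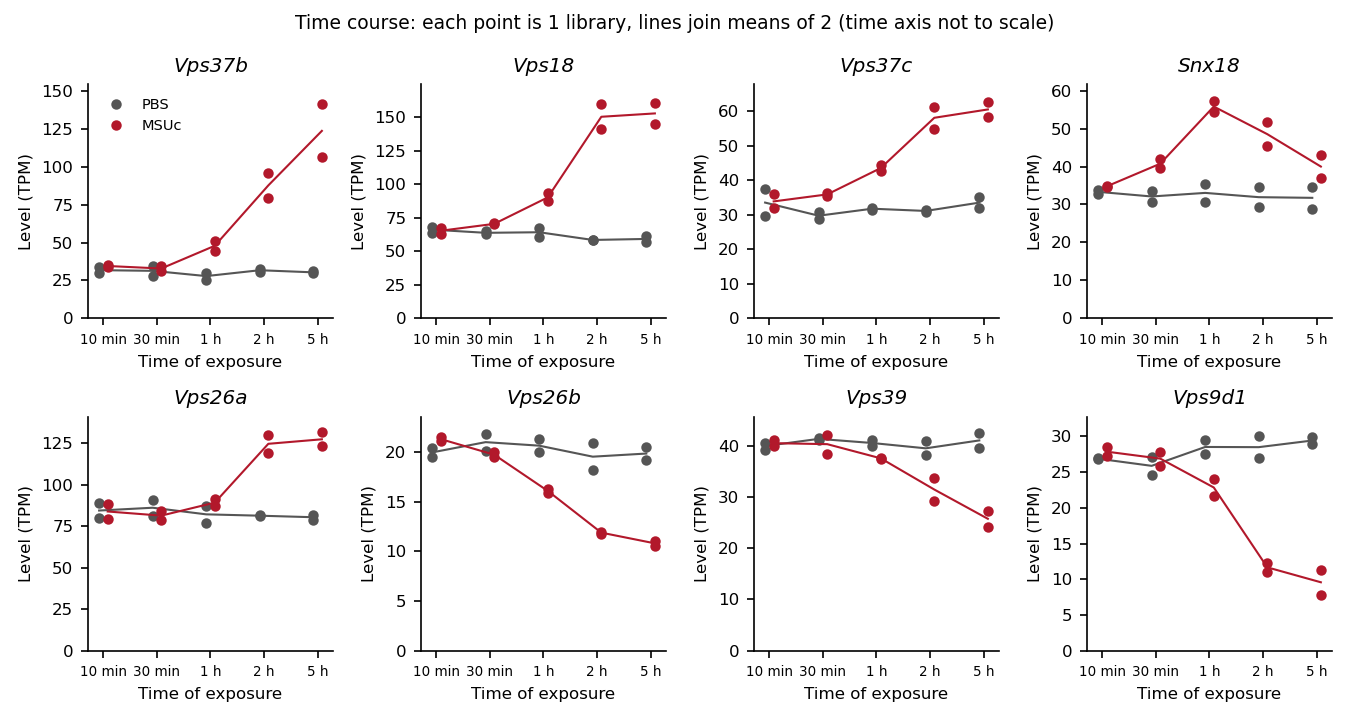
TPM (y axis) of 8 genes at the 5 times (x axis, not to scale) in PBS and MSUc; each point is 1 library and lines join the means of 2. Vps37b and Vps18 separate from PBS at 1 hour, Snx18 is highest at 1 hour (mean 55.8 TPM), and Vps9d1 is below PBS from 2 hours on.

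The other particles changed the same machinery in other proportions; all were set against the same 3 PBS libraries, so the comparisons are not independent. With CPPD 17 genes rose and 29 fell of 70 (22 and 15 under the other scaling; 52.4% of all genes called), with silica 24 and 29 (30 and 22; 68.4%) and with alum 26 and 8 (21 and 13; 46.2%). In the Tfe3 experiment WT macrophages gave 18 and 40 with CPPD (25 and 27; 60.2%) and 22 and 29 with silica (30 and 26; 65.8%). The particle table has 3 silica and 2 alum columns where the labels name 2 silica and 3 alum samples; 1 silica column was not used, and silica and alum here mean the libraries so labelled.

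Snx10, which interacts with the vacuolar proton pump and is known from osteoclasts, rose with CPPD and silica. It was at 54.0, 52.3 and 54.6 TPM in PBS, 132.4, 132.2 and 113.8 with CPPD (1.22 ± 0.10 log2, limma adjusted p = 2e-06) and 108.6 and 124.2 with silica (1.10 ± 0.12, 6.7e-06). With MSUc it was at 69.1, 54.5 and 59.9 TPM and with alum at 53.0 and 60.6, and both groups overlap PBS. In Tfe3WT it again rose with CPPD (1.11 ± 0.08 log2) and silica (0.93 ± 0.08 log2).

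Of the retromer core, Vps35, Vps26a and Vps29 rose further with silica than with MSUc, though Snx7 and Snx16 rose more than these with silica. Vps35 was at 130.2, 125.0 and 134.0 TPM in PBS and at 321.8 and 425.2 with silica (1.51 ± 0.13 log2, limma adjusted p = 1.7e-06), against 144.9 to 158.1 with MSUc. Vps26a (1.37 ± 0.11 log2), Vps29 (1.34 ± 0.11) and Vps50 (1.50 ± 0.13) rose beside it, and Vps26b was at 11.3 and 10.0 TPM against 21.9, 19.5 and 21.7 in PBS. Snx7, a partner of SNX4, went from 9.94, 10.8 and 8.96 TPM to 39.0 and 46.2 (2.00 ± 0.13 log2, limma adjusted p = 3.1e-07), and Snx5, which fell with MSUc and CPPD, was at 501.7 and 639.0 TPM against 358.5 to 383.9 in PBS. Vps51 (-1.77 ± 0.11 log2), Snx21 (-1.76 ± 0.23) and Chmp1a (-1.61 ± 0.18) fell, Chmp1a being at 39.0 and 20.9 TPM in the 2 silica libraries. Vps37b, the leading gene with MSUc, was at 18.1 and 15.8 TPM with silica and 17.9 to 19.8 in PBS. Beside these values the neutrophil markers summed to 260 to 361 TPM with silica and 49.3 to 115 in PBS; their part in the result was not tested. In Tfe3WT silica also raised Vps35 (0.98 ± 0.07 log2), Vps26a (0.95 ± 0.06), Vps29 (0.95 ± 0.08) and Snx7 (0.99 ± 0.14). There the neutrophil markers summed to 1458 to 1993 TPM with silica and 304 to 595 in PBS, and the fibroblast markers to 579 to 625 against 390 to 461; their part was not tested either.

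With alum Vps18 rose as with MSUc, from 46.7, 41.5 and 48.5 TPM to 106.5 and 132.5 (1.37 ± 0.17 log2, limma adjusted p = 4e-05), and Vps37b was at 36.7 and 39.2 TPM (0.98 ± 0.13 log2). Snx29, a PX protein of little known role, went from 14.2, 12.2 and 13.4 TPM to 34.5 and 38.0 (1.38 ± 0.12 log2, limma adjusted p = 2.3e-06), whereas it was at 8.37 to 8.86 TPM with CPPD. Vps26b was at 22.7 and 21.0 TPM with alum, within or just above PBS, and the log2 ratio of Vps26a over Vps26b was 2.45 and 2.53 against 2.04 to 2.18 in PBS. Chmp5 fell the most (-0.94 ± 0.12 log2). Across all 12314 genes tested, Spearman's correlation of the alum change with transcript length was 0.486, so that long transcripts tended to be higher; its part in these values was not tested.

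**Figure D4:**
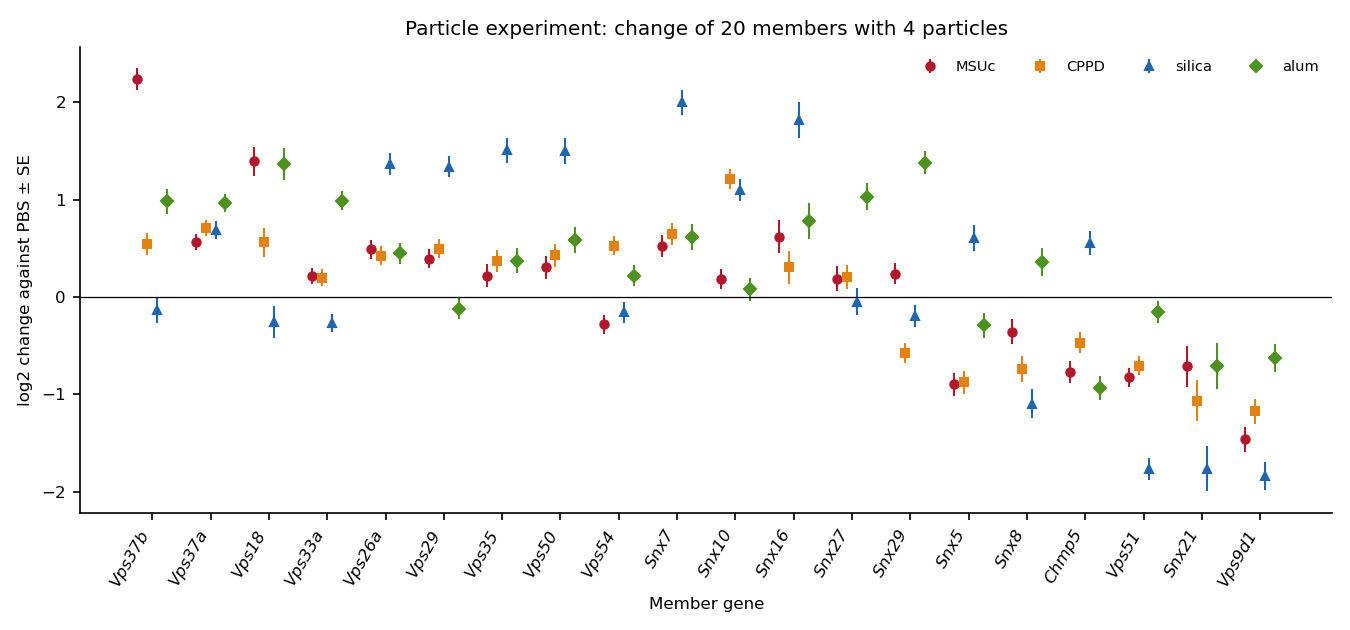
Log2 change against PBS (y axis, log2(TPM + 1) scale; bars are SE) of 20 genes (x axis) with MSUc, CPPD, silica and alum in the particle experiment. Vps37b is highest with MSUc (2.24), Snx7 with silica (2.00) and Snx29 with alum (1.38), and Snx10 stands apart from MSUc and alum with CPPD (1.22) and silica (1.10).

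In macrophages labelled Tfe3KO, Vps18, Vps35 and other rising genes were lower, mostly with particles. Genes that fell with MSUc in most experiments, such as Vps41, Snx32 and Snx5, were also lower in Tfe3KO with MSUc. In PBS 1 gene was higher and 6 lower in Tfe3KO than in Tfe3WT (2 and 5 under the other scaling), where 2.37% of all genes were called; 1 in all was called on those 6 libraries alone, and the count fell to 1 without Tfe3WT replicate 1, Tfe3WT replicate 2 or Tfe3KO replicate 3 and to 3 without Tfe3KO replicate 2. With MSUc 1 was higher and 19 lower (1 and 18; 10.7% of all genes), with CPPD 4 and 16 (4 and 16; 8.1%) and with silica 3 and 15 (5 and 9; 12.5%). Without the Tfe3KO libraries numbered 1 the counts were 6 in PBS, 16 with MSUc, 15 with CPPD and 16 with silica. A difference of those libraries in sex-linked genes was the reason for this fit. No values of such genes are given here, and their part in the differences was not tested. The silica count was 10 on its own 6 libraries and also 10 without Tfe3KO replicate 3, and the CPPD count was 12 without Tfe3WT replicate 2 or Tfe3KO replicate 3. The median difference with MSUc was -0.04 log2 for the 70 genes and -0.01 for all genes. By role, the genes lower with MSUc were 3 of 4 retromer genes, 4 of 8 HOPS, CORVET and CHEVI genes, 6 of 12 SNX-BAR genes, 1 of 9 ESCRT-III genes and 0 of 2 VPS4 ATPases.

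Vps18 stood at 118.8, 129.0 and 119.1 TPM in Tfe3WT with MSUc and at 72.2, 68.8 and 71.5 in Tfe3KO (-0.78 ± 0.07 log2, limma adjusted p = 3e-07), so that the groups were far apart. In PBS it was at 50.0, 46.7 and 48.4 against 38.0, 44.5 and 44.1 TPM, not called. It was also lower with CPPD (-0.74 ± 0.07 log2) and silica (-0.79 ± 0.07 log2). Genes lower in Tfe3KO with all 3 particles were Vps18, Vps33a, Vps8, Vps35, Vps50, Snx8, Snx29 and Snx33; 3 of these 8 (Vps35, Vps50 and Vps8) were also lower in PBS. Under the other scaling Snx33 lost its call with MSUc, and Snx29, Snx33 and Vps50 lost theirs with silica.

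Of the retromer core, Vps35 was lower under all 4 conditions. Vps35 was at 132.0, 130.3 and 114.2 TPM in Tfe3WT with MSUc and at 88.3, 73.7 and 80.6 in Tfe3KO (-0.63 ± 0.07 log2, limma adjusted p = 3.4e-06), and at 96.5, 98.5 and 86.6 against 76.0, 80.3 and 73.7 in PBS (-0.29, lost on the PBS libraries alone, limma adjusted p = 0.30). Vps26a differed by -0.41 ± 0.06 and Vps29 by -0.37 ± 0.08 log2 with MSUc, and neither was called with silica. Vps29 was also called lower in PBS under both scalings. Vps26b, the alternative arm, was at 10.7, 10.7 and 10.5 TPM in Tfe3WT and 9.92, 10.5 and 9.64 in Tfe3KO and was not called. Vps39 overlapped as well, at 21.7 to 25.7 TPM against 24.1 to 24.6 with MSUc. The CORVET gene Vps8 was at 13.997, 13.6 and 13.8 TPM in Tfe3WT with MSUc and 9.86, 8.74 and 8.79 in Tfe3KO (-0.55 ± 0.08 log2, limma adjusted p = 6.5e-05). Among the SNX-BAR genes Snx32 was at 5.96, 4.83 and 6.33 against 2.67, 3.11 and 3.77 TPM (-0.68 ± 0.14 log2), and Snx2 at 65.0, 60.4 and 55.5 against 49.7, 44.5 and 43.5 (-0.39 ± 0.08). Snx2 was also called lower in PBS under both scalings. The gene that was higher, the ESCRT-III gene Chmp1b, was at 61.2, 55.0 and 58.2 against 71.8, 74.0 and 62.2 TPM (0.25 ± 0.07 log2, limma adjusted p = 0.017) and was not called on the compared groups alone (limma adjusted p = 0.12).

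The interaction test asked whether the response to MSUc itself differed between the genotypes. It called 0 genes up and 7 down (0 and 7 under the other scaling) where 1.73% of all genes were called, and 3 of the 7 (Snx29, Vps18 and Snx8) on the compared groups alone. The response of Vps18 was smaller by 0.58 log2 in Tfe3KO (-0.58 ± 0.10, limma adjusted p = 0.0038), that of Vps37b differed by -0.49 ± 0.10 (0.017) and that of Chmp2b by -0.50 ± 0.12 (0.044). Chmp2b was at 58.3, 62.7 and 54.2 TPM in Tfe3WT with MSUc and 40.8, 34.3 and 36.6 in Tfe3KO, close to its PBS values of 38.4 to 44.3 and 34.8 to 40.5. Vps37b was at 107.3, 108.0 and 103.1 against 71.3, 76.7 and 84.3 TPM with MSUc, still far above its 18.3 to 21.2 and 19.2 to 21.1 in PBS. Snx29 showed the largest difference in response (-0.95 ± 0.16, limma adjusted p = 0.0035): it was at 14.6, 11.5 and 14.7 TPM in Tfe3WT PBS and 16.5, 15.4 and 16.0 with MSUc, and at 18.3, 17.2 and 17.9 in Tfe3KO PBS and 11.6, 10.8 and 8.86 with MSUc. Snx8 (-0.47 ± 0.09), Snx27 (-0.43 ± 0.09) and Vps33a (-0.41 ± 0.09) completed the list. Snx27, a retromer cargo adaptor, was higher in Tfe3KO in PBS (35.2, 38.8 and 40.7 against 24.8, 25.2 and 25.5 TPM; 0.58 ± 0.06 log2, limma adjusted p = 2.7e-05) and not called with MSUc. The interaction call of Chmp2b was lost without any of 7 libraries (limma adjusted p 0.075 to 0.13), that of Vps33a without any of 5 (0.061 to 0.078) and that of Vps37b without Tfe3KO PBS replicate 2 (0.053). Beside all of these, the neutrophil markers summed to 546 to 720 TPM in Tfe3WT and 301 to 466 in Tfe3KO with MSUc, and to 304 to 595 and 220 to 395 in PBS, with 0 of the 8 markers at 0 in a group; the fibroblast markers summed to 342 to 481 and 164 to 575 with MSUc. Their part in the differences was not tested.

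**Figure D5:**
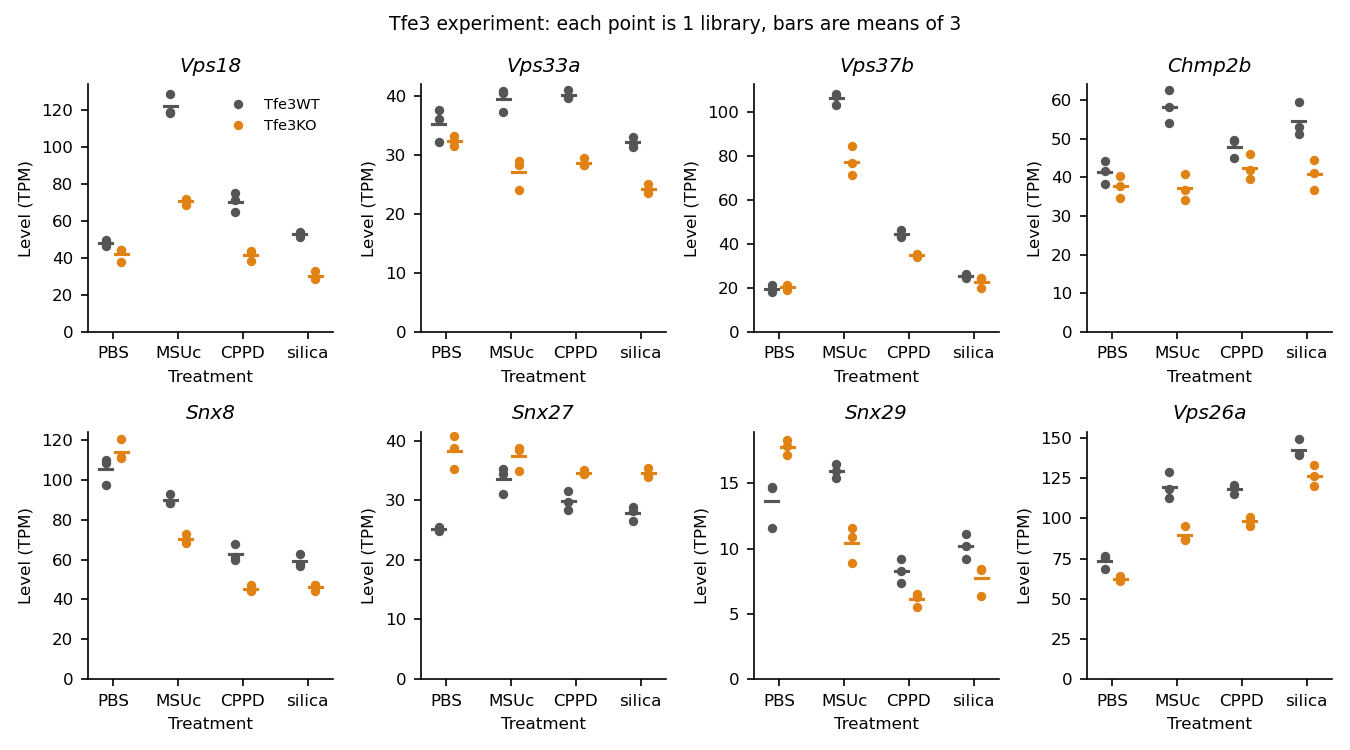
TPM (y axis) in each of the 3 libraries (points; bars are means) of Tfe3WT and Tfe3KO macrophages in PBS, MSUc, CPPD and silica (x axis) for 8 genes. With MSUc, Vps18 lies at 118.8 to 129.0 TPM in Tfe3WT and 68.8 to 72.2 in Tfe3KO, without overlap.

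Promoters of 48 of the 73 genes could be matched by symbol to RefSeq promoter sequences (build GRCm38.p6, 250 bases before to 50 after a start; both strands searched). The motif CACGTG was in a promoter of 7 of these 48 genes (14.6%): Snx5, Snx8, Snx18, Vps16, Vps26a, Vps33a and Vps50; in all, 8.09% of 27025 genes and 7.15% of 32851 promoters held it. The longer form TCACGTGA, which contains it, was in 3 of the 48 (6.25%) and in 1.13% of all genes. The 250 bases before the start are shown for 4 of the 7, since they held the motif in different copies and the genes differed in Tfe3KO: Vps33a has 2 copies, at positions -28 and -12 from the start, Vps26a 1 at -182 in the window of its upstream start, Vps16 1 at -18 and Snx8 1 at -100. Capitals mark CACGTG and, where present, the T before and the A after it. The windows lie at chr5:123573016-123573265 (minus strand), chr10:62486806-62487055 (minus strand), chr2:130424070-130424319 (plus strand) and chr5:140389309-140389558 (minus strand), in that order, each written 5′ to 3′ on the strand of its gene.
Vps33a: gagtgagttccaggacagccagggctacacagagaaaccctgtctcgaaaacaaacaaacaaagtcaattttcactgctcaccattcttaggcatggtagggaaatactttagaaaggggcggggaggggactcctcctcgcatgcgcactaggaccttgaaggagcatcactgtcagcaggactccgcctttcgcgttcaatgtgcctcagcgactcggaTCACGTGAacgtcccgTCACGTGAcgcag
Vps26a: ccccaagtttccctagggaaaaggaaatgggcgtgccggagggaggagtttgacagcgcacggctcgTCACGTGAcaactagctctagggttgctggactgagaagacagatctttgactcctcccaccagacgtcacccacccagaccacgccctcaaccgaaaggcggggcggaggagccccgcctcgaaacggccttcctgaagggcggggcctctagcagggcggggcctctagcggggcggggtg
Vps16: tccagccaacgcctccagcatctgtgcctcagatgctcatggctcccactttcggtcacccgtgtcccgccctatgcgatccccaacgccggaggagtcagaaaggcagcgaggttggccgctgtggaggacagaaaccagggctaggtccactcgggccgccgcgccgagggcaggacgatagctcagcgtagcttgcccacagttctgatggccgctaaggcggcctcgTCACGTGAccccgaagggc
Snx8: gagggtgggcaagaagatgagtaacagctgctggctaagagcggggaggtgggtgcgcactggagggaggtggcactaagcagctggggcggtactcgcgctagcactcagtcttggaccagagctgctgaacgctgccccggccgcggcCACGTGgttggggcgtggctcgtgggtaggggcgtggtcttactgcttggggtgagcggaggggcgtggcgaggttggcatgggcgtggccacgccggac

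With MSUc, Vps33a was at 40.9, 40.6 and 37.3 TPM in Tfe3WT and 29.0, 28.3 and 24.1 in Tfe3KO (-0.53 ± 0.07 log2, limma adjusted p = 1.7e-05), and Vps26a at 128.9, 112.4 and 118.0 against 95.3, 87.1 and 86.5 (limma adjusted p = 8.4e-05). Snx8, an endosomal SNX-BAR protein, was at 92.7, 88.5 and 88.6 against 70.0, 68.1 and 73.0 TPM (-0.35 ± 0.06 log2, limma adjusted p = 0.00065). Vps16, whose motif sits as close to the start as those of Vps33a, was at 16.0, 15.9 and 13.96 against 17.2, 17.3 and 16.0 TPM and was not called. Of the 7 genes with CACGTG 5 were lower in Tfe3KO with MSUc (Snx5, Snx8, Vps26a, Vps33a and Vps50; median of the 7, -0.35 log2), and of the 40 tested genes with a matched promoter without it 8 were lower (median -0.03). Vps18, Vps37b and Chmp2b are not among the genes with the motif, and no match says only that these letters are not in the windows searched or that no window was matched. The counts describe the letters and the levels side by side; binding at these promoters was not measured here.

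The authors' deposited peak lists assign each peak to its nearest gene. Of 5667 TFEB peaks that gained signal with MSUc, 40 (0.706%) lay nearest to 19 of the genes described. Of 4446 gained TFE3 peaks 30 (0.675%) lay nearest to 18, and 12 genes had both. The genes described are 73 of the 24940 in each expression table. All gained TFEB peaks lay nearest to 3209 genes and all gained TFE3 peaks to 2826. The shares of peaks count a gene once for each of its peaks, so the numbers of genes are the closer comparison. The difference was not tested. The TFE3 list rests on 1 MSUc sample in the labels. Every peak in these 2 lists lies over 3 kb from a start (the smallest distances are 3001 and 3004 bases), so that the lists hold no promoter peaks. Of the 40 TFEB peaks 15 overlapped a gained TFE3 peak, 11 a gained peak of the methyltransferase DOT1L and 6 a region that gained the active histone mark H3K27ac. Only peaks and regions nearest to the genes described were searched, so overlaps with those assigned to other genes are missed. The overlaps of all 5667 TFEB peaks were not counted. DOT1L had 22 gained peaks of 4756 at 14 of the genes and 20 reduced of 4208 at 15. All gained DOT1L peaks lay nearest to 2498 genes and all reduced ones to 2722.

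Vps37b had TFEB and TFE3 peaks that overlap upstream of the gene on mm10 at chr5:124047096-124047383 (-14.98 kb from the start) and chr5:124052157-124052461 (-20.05 kb), both intergenic, and the authors' table lists a gain of H3K4me3, a mark of active promoters, of 1.50 log2 at chr5:124051379-124053379. Snx30 had overlapping TFEB, TFE3 and DOT1L peaks upstream (TFEB peak at chr4:59800243-59800496, -5.28 kb), 3 gained H3K27ac regions in its intron 1 (1.12 to 1.30 log2 in the authors' table) and 4 gained H3K4me3 regions (1.00 to 1.73). These H3K27ac regions of Snx30 overlap one another, as do its intergenic H3K4me3 regions, so they are not separate sites. Both genes also had a reduced DOT1L peak in intron 1 (chr5:124025233-124025440 for Vps37b and chr4:59837872-59838104 for Snx30). Vps37b and Snx30 rose in all 8 experiments. Vps39 had a TFEB, TFE3 and DOT1L peak in intron 2 of 25 (TFEB peak at chr2:120348213-120348502) with a gain of H3K27ac of 1.52 log2 in the authors' table, although its transcript fell in all 8. Vps8 had TFEB and TFE3 peaks upstream (TFEB peak at chr16:21418090-21418336, -4.90 kb) in a region that gained H3K27ac by 1.98 log2 in the authors' table. Vps26b, which also fell, is listed in the authors' table with less H3K27ac at its promoter (-1.01 log2, chr9:27029109-27031109). Among the genes with these peaks, Chmp3, Chmp7, Snx11, Snx12 and Vps13d each had a TFEB or TFE3 peak and log2 changes with MSUc between -0.99 (Snx11) and 0.33 (Snx12), with Snx12 up in 3 experiments (5 under the other scaling) and Snx11 down in 6 (4). The calls of the other three turned on the scaling: Chmp7 was down in 2 experiments but up in 2 under the other scaling, Vps13d down in 3 but up in 3, and Chmp3 down in 5 but in 0. Of the 25 genes with a TFEB or TFE3 peak 3 were among the 8 that rose in all 8 experiments under both scalings (Vps37b, Snx30 and Snx16) and 2 among the 4 that fell (Snx14 and Vps39). Of the 18 with a TFE3 peak 7 were lower and 1 higher in Tfe3KO with MSUc. In that comparison 19 of all 70 genes described were lower and 1 higher, and of 12796 genes tested 848 were lower and 524 higher.

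Neither the Tfeb transgene nor, with MSUc, the Bhlhe40KO or Bhlhe41KO genotype moved any of the 70 genes past limma's threshold on the deposited scale. TfebTg against TfebWT gave 0 calls in PBS (0.717% of all genes; 3 at an unadjusted p under 0.05; 2 by limma-voom) and 0 with MSUc (3.48%; 14; 5 by limma-voom). With MSUc the other scaling called 2 up and 1 down, and the replicate block 1. With MSUc Vps18 was at 109.2, 118.3 and 115.4 TPM in TfebWT and 78.9, 103.9 and 89.5 in TfebTg, which do not overlap, and Vps37b at 89.4, 80.4 and 78.9 against 72.4, 98.4 and 93.9, which do. Bhlhe40KO and Bhlhe41KO against WT with MSUc gave 0 calls each (0.0165% and 1.33% of all genes; 7 and 11 at an unadjusted p under 0.05; 0 by limma-voom). Vps37b was at 161.1 and 169.2 TPM in WT, 199.9 and 171.3 in Bhlhe40KO and 146.3 and 143.2 in Bhlhe41KO.

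Ampka1KO macrophages with MSUc differed from Ampka1WT in 51 of 71 genes, 32 higher and 19 lower (15 and 38 under the other scaling), where 71.8% of all genes were called; the median of all genes was 0.39 log2 higher and 0.03 under the other scaling. Under both scalings 15 were higher and 19 lower. Vps37b was at 20.9, 22.6 and 23.2 TPM in Ampka1WT PBS and 174.7, 163.5 and 129.6 with MSUc, and at 37.5, 24.2 and 25.2 in Ampka1KO PBS and 49.7, 40.7 and 47.8 with MSUc (-1.73 ± 0.16 log2 with MSUc, limma adjusted p = 1.3e-06). Vps18 was at 132.2, 129.3 and 123.6 TPM in Ampka1WT with MSUc and at 45.1, 38.5 and 38.9 in Ampka1KO, below its PBS values there of 46.5 to 55.8 (-1.63 ± 0.08 log2, limma adjusted p = 1.1e-08). For both genes every Ampka1WT library with MSUc lay above every Ampka1KO library.

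Vps26b was at 11.7, 9.78 and 11.0 TPM in Ampka1WT with MSUc and at 22.6, 26.1 and 27.8 in Ampka1KO, around the PBS libraries (25.9 to 26.5 in both genotypes), and differed by 1.16 ± 0.09 log2 (limma adjusted p = 2.9e-07). The log2 ratio of Vps26a over Vps26b went from 1.20, 1.04 and 0.93 to 2.88, 3.11 and 3.07 in Ampka1WT; in Ampka1KO it was 1.64, 1.17 and 1.30 in PBS and 1.46, 1.59 and 1.39 with MSUc, which overlap. Snx8 (-1.69 ± 0.07 log2) and Vps37c (-1.23 ± 0.11) were lower in Ampka1KO with MSUc, and Snx7 (2.45 ± 0.16) and Vps36 (1.35 ± 0.11) higher. The difference in response between the genotypes was not tested. The cultures also differed in other cells: the 4 fibroblast markers summed to 65.2 to 209 TPM in Ampka1WT with MSUc and 2127 to 2683 in Ampka1KO, the 8 neutrophil markers to 11.4 to 65.7 and 344 to 405, and the 8 macrophage markers to 29294 to 35123 and 8393 to 10531, with no marker at 0 apart from 1 of the neutrophil list in Ampka1WT. Already in PBS the fibroblast sum was 774 to 1234 TPM in Ampka1KO against 74.1 to 138. Their part in the differences was not tested.

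SGC0946 left 0 of 70 genes called in PBS (0.673% of all genes; 8 at an unadjusted p under 0.05; 4 by limma-voom). With MSUc 6 were higher and 6 lower (6 and 5 under the other scaling), where 16.6% of all genes were called; 6 in all were called on the compared groups alone. Snx22 was at 22.9, 17.4 and 16.6 TPM with vehicle and 38.2, 31.6 and 44.1 with SGC0946 (0.97 ± 0.18 log2, limma adjusted p = 0.0061), Snx20, a PX protein that binds a leukocyte adhesion ligand, at 28.6, 23.9 and 33.2 against 57.6, 46.1 and 52.8 (0.85 ± 0.13, 0.0023), and Vps28 at 34.5, 25.7 and 22.5 against 43.2, 47.3 and 50.1 (0.76 ± 0.14, 0.005). These 3 genes had fallen with MSUc in the vehicle group, and with SGC0946 they did not overlap the vehicle libraries. Vps13b was at 9.01, 9.22 and 8.54 TPM with vehicle and 4.61, 5.11 and 5.42 with SGC0946 (-0.72 ± 0.15 log2, limma adjusted p = 0.011), and Vps13a (-0.63 ± 0.17) and Vps13c (-0.56 ± 0.14) were lower too. Across all 12324 genes tested, Spearman's correlation of the SGC0946 difference with transcript length was -0.448 with MSUc and -0.334 in PBS, so that long transcripts, such as those of the VPS13 genes, tended to be lower; its part in these values was not tested. The call of Vps13c was lost without vehicle replicate 2 (-0.48, limma adjusted p = 0.06), SGC0946 replicate 1 (-0.58, 0.056) or SGC0946 replicate 3 (-0.52, 0.074). The count of 12 was 6 or 7 without vehicle replicate 2 or any 1 of the SGC0946 libraries. Snx6 (39.0, 41.6 and 42.2 against 35.1, 30.3 and 31.7 TPM) and Snx4 (39.3, 41.2 and 44.3 against 32.1, 34.0 and 36.2), both SNX-BAR genes, were slightly higher and were not called on the compared groups alone. Vps37b was at 135.5, 143.0 and 130.2 TPM with vehicle and 155.1, 152.5 and 148.7 with SGC0946, not called.

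Metformin, which lowers mitochondrial respiration and activates AMPK, changed 16 genes up and 7 down in PBS (11 and 11 under the other scaling; 39.5% of all genes) and 30 up and 7 down with MSUc (20 and 15; 43.6%). The PBS count was 15 without metformin replicate 3. With MSUc, Vps37b was at 130.3, 131.2 and 118.4 TPM with vehicle and 72.8, 73.7 and 76.6 with metformin (-0.76 ± 0.09 log2, limma adjusted p = 4.7e-05), whereas in PBS it was higher with metformin (41.8, 40.05 and 36.1 against 27.4, 29.5 and 24.5 TPM; 0.52 ± 0.09, 0.00054). Snx30 was lower with MSUc (-0.52 ± 0.12 log2), at 16.1, 22.4 and 23.0 TPM against 28.2, 29.3 and 31.4. Snx16 was at 7.11, 7.46 and 8.78 TPM in vehicle PBS and 18.4, 18.5 and 19.2 in metformin PBS (1.17 ± 0.11 log2, limma adjusted p = 5.5e-06), which is the level it reached with MSUc and vehicle (17.98, 19.1 and 18.7). Snx14 was at 23.0, 17.1 and 21.6 against 11.2, 12.4 and 13.4 TPM in PBS (-0.69 ± 0.13, limma adjusted p = 0.0011), again near its level with MSUc and vehicle (12.4, 13.0 and 14.5). Snx33, a SNX-BAR protein of endocytosis, was higher with metformin in PBS (0.94 ± 0.10 log2) and with MSUc (0.95 ± 0.10), and the HOPS gene Vps41 was higher with MSUc (0.77 ± 0.08), at 48.3, 51.0 and 53.3 against 30.1, 26.9 and 31.7 TPM. Snx13, an SNX-RGS protein, was at 24.3, 23.7 and 25.8 TPM with metformin and 14.2, 12.9 and 14.8 with vehicle in PBS (0.78 ± 0.13 log2), and Vps72, which encodes a chromatin protein of another function despite its name, at 48.4, 46.2 and 43.6 against 20.8, 30.8 and 27.04 with MSUc (0.81 ± 0.12). Snx4 went the other way in PBS, with 26.1, 26.1 and 26.2 TPM against 29.3, 31.7 and 36.6. The macrophage markers summed to 11466 to 13038 TPM with metformin and 23174 to 25984 with vehicle in PBS, and to 13001 to 15517 and 19278 to 22331 with MSUc. In PBS the neutrophil markers summed to 2.95 to 15.3 TPM with metformin and 17.1 to 75.1 with vehicle, and the mast cell markers to 12.1 to 15.8 against 1.39 to 1.67. With MSUc the fibroblast markers summed to 147 to 326 TPM with metformin and 449 to 525 with vehicle; the markers' part in the differences was not tested.

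A list of 55 genes of the same machinery outside the symbol rule (ESCRT-0 and other ESCRT partners, tether regulators, the WASH and Commander complexes and endosomal SNAREs and lipid kinases) was read beside them. Of the 54 tested, 4 rose in all 8 MSUc experiments under both scalings: the ESCRT-0 genes Stam (0.63 to 0.98 log2) and Stam2 (1.20 to 1.76), the ESCRT-I subunit Ubap1 (0.67 to 1.49) and the late endosomal GTPase Rab7b (0.77 to 3.21). At 5 hours Stam2 went from a mean of 25.7 to 62.8 TPM and Ubap1 from 49.9 to 117.5, while the ESCRT-I gene Tsg101 was at 24.7 against 26.7 TPM and was not called. Of the 54, 13 were up and 22 down at 5 hours (17 and 15 under the other scaling), where 49.3% of all genes were called. Under both scalings 3 fell in all 8: Ankrd27, Cc2d1a and Pik3c3, the kinase that makes the endosomal phosphoinositide that PX domains bind. In Tfe3KO with MSUc 21 of the 54 were lower and 0 higher (20 and 0 under the other scaling), where 10.7% of all genes were called. Among them were 4 of the 5 WASH complex genes, whose complex builds actin on retromer tubules, with Washc2 (28.6 against 58.8 TPM; -1.02 ± 0.11 log2) and Washc5 (29.8 against 59.5 TPM; -0.97 ± 0.05) the largest. Genes of the Commander complex, which recycles cargo with retriever, were lower as well, with Commd9 (-0.88 ± 0.12 log2) and Ccdc22 (-0.69 ± 0.11) the largest. The interaction test called Ccdc22, Washc2 and Washc5 (3 down, 0 up).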

How the data were processed

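Poly-A RNA of bone marrow-derived macrophages was sequenced strand-specifically, per the labels' protocols; 115 of the series' 157 samples were used as expression libraries and the rest only through peak lists. The deposited expression values carry no unit in the file headers and were read as TPM: the authors aligned with STAR and quantified with HOMER on mm10, per the submitters' processing notes, and kept 1 transcript per symbol, with which each library sums to 528079 to 569594. Whole reads were recovered from the TPM steps (100% of values whole within 0.15 read), which gave the depth. Libraries of a group differed by more than counting noise in all 95 pairs (lowest chi-square per degree of freedom 2.49). The deposited lists of changed peaks and histone regions give the authors' log2 fold changes and adjusted p-values for histone regions, and distances to the nearest gene; the caller of the transcription factor and DOT1L peaks is not given in the sources used here.

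Values were tested on log2(TPM + 1), which understates the change of low genes, with limma 3.58.1 (trend, two-sided) in R 4.3.3, each experiment in 1 fit of all its groups, for genes that reached 1 TPM in at least the number of libraries of the experiment's smallest group; p-values were adjusted by Benjamini-Hochberg over all genes. The fit was tested on simulated data. Counts, ratios and motif searches used pandas 2.3.3 and numpy 2.4.6 under Python 3.11.15, and plots matplotlib 3.10.9. Groups come from the labels; 2 expression columns without a matching sample were not used. Alternatives were median-of-ratios scaling, a pseudocount of 0.1, no filter, the compared groups alone, the replicate number as a block, each library left out, and, chosen after seeing the data, limma-voom on recovered reads, a crossed block and a fit without the Tfe3KO libraries numbered 1.

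Same-numbered libraries were compared by the correlation of their deviations from group means. In the Tfe3WT comparison of CPPD with PBS all 3 pairs were above 0.1 (0.128, 0.186 and 0.118), which counts as paired; the block there gave 19 up and 41 down against 18 and 40. In no other comparison with 3 numbered pairs were all above 0.1.

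The genes, lists and rules were chosen with earlier results of these data known. Genes were described with their values when called alike in all 8 MSUc comparisons under both scalings, among the 6 largest rises or falls of a comparison (mean of at least 5 TPM, no overlap, both scalings), called in Tfe3KO with MSUc or in the interaction, or nearest to a gained TFEB or TFE3 peak, as far as space allowed. Promoter sequences are from RefSeq (GRCm38.p6).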

Additional observations from a re-analysis of the deposited data

Results flagged for a closer look

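In 7 genes the response to MSUc differed between Tfe3KO and Tfe3WT by limma's interaction test. The difference in response, Tfe3KO minus Tfe3WT, was -0.95 log2 for Snx29, -0.58 for Vps18, -0.50 for Chmp2b, -0.49 for Vps37b, -0.47 for Snx8, -0.43 for Snx27 and -0.41 for Vps33a.

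In 8 genes, 7 sorting nexins and Vps13c, MSUc was called in opposite directions in different experiments; the difference between the experiments was not tested. Snx3 was up in 1 and down in 3 (-0.24 to 0.29), and its libraries overlapped where it was up. The other 7 follow, each with a rise and a fall whose libraries did not overlap, though the other scaling called no fall of Snx3, Snx8, Snx10 or Snx33. Snx24 rose by 1.28 log2 in Ampka1WT, from 3.31, 3.32 and 3.21 to 9.59, 9.65 and 9.05 TPM, and changed by -0.96 in WT of the Bhlhe experiment. Vps13c changed by 0.52 in Ampka1WT and -0.97 in the vehicle group of the SGC0946 experiment. Snx29 changed by 0.71 in Ampka1WT and -0.68 in the vehicle group of the metformin experiment, and Snx33 by 0.29 and -0.31 in the same groups. Snx2 changed by 0.50 in Ampka1WT and -0.60 in the particle experiment, and Snx8 by 0.20 and -0.36. Snx10 changed by 0.23 at 5 hours of the time course and -0.43 in TfebWT. In 6 of the 8 a rise was in Ampka1WT, whose macrophages were grown in another medium with less M-CSF; the part of the medium was not tested.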

How the results depend on the processing

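Among the results for single genes, 10 of the 52 refitted without the Tfe3KO libraries numbered 1 lost their call. With TfebWT MSUc library 3 counted in PBS, 14 of 14 lost theirs. Of all 300 results 0 changed direction under any alternative, but all had been chosen as called, so this 0 says little about stability. They lost their call in 33 cases with the compared groups alone, 15 without the filter, 4 with limma-voom, 4 with the replicate block, 1 with median-of-ratios scaling (most were chosen as called under both scalings, so this count says nothing about stability) and 0 with a pseudocount of 0.1; of the refits without 1 library, 145 of 1712 lost a call. Over all genes described that scaling took the falls with MSUc from 36 to 18 in the particle experiment and from 32 to 17 at 5 hours, and 4 of the 13 genes down in all 8 experiments stayed so. With the compared groups alone the counts of called genes were 0 at 1 hour (5 with all groups), 12 at 2 hours (30), 1 for Tfe3KO in PBS (7), 10 with silica (18), 3 for the interaction (7) and 6 for SGC0946 with MSUc (12). Counting TfebWT MSUc library 3 in PBS left 0 (37). Limma-voom called 2 for TfebTg in PBS, 5 for TfebTg with MSUc and 4 for SGC0946 in PBS, where limma called 0, and median-of-ratios scaling called 3 for TfebTg with MSUc. Without each library in turn the counts were 1 to 3 at 1 hour, 1 to 8 for Tfe3KO in PBS, 12 to 18 with CPPD and 10 to 16 with silica, 23 to 36 for MSUc in TfebWT, 0 to 2 for TfebTg with MSUc (2 without TfebTg library 2), 6 to 11 for SGC0946 with MSUc and 15 to 21 for metformin in PBS. The cause of these shifts was not tested, beyond the fewer libraries in each fit.

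With the replicate number as a block, TfebTg with MSUc had 1 call (0 without), and the other counts stayed within 1.5 times, such as 18 up and 32 down at 5 hours. The block ended the calls of Vps4b with MSUc (0.28, limma adjusted p = 0.069) and Snx21 with alum (-0.64, 0.057) in the particle experiment, of Snx27 for Tfe3KO with CPPD and of Snx4 for SGC0946 with MSUc. In the time course same-numbered libraries correlated by -0.42 to -0.55 from 30 minutes on, and a crossed pairing gave 11 up and 21 down at 2 hours and 17 and 33 at 5 hours. The planned edgeR test on recovered reads was not run, and limma-voom was run on those reads instead. Depth limits low genes most: the median over libraries was 100 reads for Snx32 and 4204 for Snx5.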
